A study of Mus musculus with 4 samples.

Results

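The genes of the mitochondrial ribosome were followed in pancreatic islets of Tafazzin-knockdown mice and of non-transgenic controls. A gene was taken as a member when its symbol in the deposited table starts with Mrpl or Mrps followed by a digit. This gave 78 of the 24940 genes, of which 51 belong to the large subunit and 26 to the small subunit. Mrps36, whose product is also described as part of the oxoglutarate dehydrogenase complex, was placed in neither. The rule used symbols and no measured value, though it was set with earlier results of these data known. All 78 genes passed the filter on low values.

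Mitochondria carry their own ribosome, which makes the few membrane proteins encoded by mitochondrial DNA, all of them subunits of the oxidative phosphorylation complexes. Its RNA comes from the mitochondrial genome, whereas every one of its proteins is encoded in the nucleus, made in the cytosol and imported. Many of the proteins descend from bacterial ribosomal proteins, and the others exist only in mitochondrial ribosomes. Tafazzin remodels cardiolipin, a phospholipid of the inner mitochondrial membrane, to which the mitochondrial ribosome is bound while it inserts its products. In beta cells, oxidative phosphorylation supplies the ATP that couples glucose to insulin secretion.

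Islets, which hold the insulin-secreting beta cells and the other endocrine cells of the pancreas, came from male mice aged 3 to 4 months on a low-fat chow diet, and each library pooled about 300 islets from 2 to 3 mice. There were 2 libraries of non-transgenic control mice (replicates 1 and 2) and 2 of Tafazzin-knockdown mice (replicates 3 and 4). The labels do not say which cells carry the knockdown construct, and its presence cannot be told apart from the loss of Tafazzin because the controls are non-transgenic. P-values take these pools as replicates. In the main limma test the variance of a gene came from a trend over all genes, not from its own pools.

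Each value gives the reads of a gene for every 10000000 sequenced in its library, and such values are called units below. The libraries held 68823160 to 81073502 reads, of which the members took 6322 to 7712. The row of Rn45s, of ribosomal RNA, took 41.6% to 42.6% of a library. The 13 rows with a mean above 25000 units (Ins1 and Ins2 not counted among them) were set aside. The other rows held only 4320910 to 4962798 reads, 5.33% to 6.68% of a library. All rows of the table together held 55470964 to 65175895 reads, so part of each library lay in no row. A member had a median of 76 to 94 reads per library, and 19 of the 78 had fewer than 50 reads in at least 1 library. Taz, the gene of Tafazzin, stood at 23.1 and 15.4 units in control replicates 1 and 2 and at 13.8 and 12.7 units in knockdown replicates 3 and 4. It was lower in both knockdown libraries but did not pass (limma adjusted p = 0.529, edgeR adjusted p = 0.122). Its log2 fold change relative to the median of all genes was -0.65 ± 0.25 (SE), whereas the limma p refers to the change before that median is subtracted. Of marker genes for other islet and pancreas cells, 14 of 21 for stellate cells and fibroblasts, 6 of 15 for endothelium and 5 of 12 for ducts rose in the knockdown by limma, as did 2 of 8 for macrophages (all genes: 2.49%). The median log2 fold changes of the stellate, endothelial and duct genes, relative to all genes, were 1.13, 0.59 and 0.42. The macrophage genes as a set were not shifted, with a median of 0.02, 4 genes above the median of all genes and 4 below. Of these 8, edgeR called 1 higher. Summed, the stellate genes held 191 and 194 units in the control pools and 578 and 443 in the knockdown pools, the endothelial genes 227 and 187 against 433 and 334, and the duct genes 991 and 1092 against 1993 and 1312. After median-ratio scaling the duct sums overlapped, at 951 and 1284 against 1845 and 1236 units, and those of the other 2 lists did not. The medians were -0.28 for 15 beta cell genes and -0.42 for 17 acinar genes, with 0 called by limma. Of the beta cell genes, edgeR called 2 lower (all genes: 0.148%). The beta cell sums overlapped as deposited, at 100432 and 79263 units against 84381 and 91692. After median-ratio scaling they did not, at 96362 and 93162 units against 78144 and 86392. On that scale 11 of the 15 beta cell genes lay below both controls (all genes: 20%) and 4 overlapped. There limma called 2 of them lower (all genes: 0.155%). The deposited acinar sums did not follow the groups, at 3591 and 7368 units against 6257 and 2960, and all 17 acinar genes overlapped between groups. The part of these marker differences in the members' values was not tested, and in a bulk sample fewer cells of a type and less RNA per cell cannot be told apart.

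The promoters show what these genes share in sequence. For 69 of the 78 members RefSeq (GRCm38.p6, the assembly also called mm10) gave 75 promoter windows of 300 bases, from 250 before the start of the gene to 50 after it. Short sequences bound by 3 regulators of nuclear genes for mitochondrial proteins were searched on both strands: GCATGCGC for NRF1, CCGGAAGT for ETS factors such as GABP, and AAGATGGCG for YY1. None of the 3 contains another. At least 1 was present in 34.7% of the members' windows, in 14.4% of the windows of all genes tested and in 7.57% of all 32851 windows. NRF1 letters were found in 10.7% of the members' windows and in 4.98% of those of tested genes, ETS letters in 16.0% and 7.55%, and YY1 letters in 10.7% and 2.81%. A match is a run of letters and does not show that a factor binds there.

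Around the start of the gene, 4 members whose values are described further on read as follows, from 100 bases before the start, on the strand of the gene. Capitals mark the searched letters on either strand. Mrpl33 lies at chr5:31613851-31613970, Mrpl36 at chr13:73330909-73331028, Mrpl3 at chr9:105053168-105053287 and Mrps26 at chr2:130563657-130563776, all on the plus strand.
Mrpl33: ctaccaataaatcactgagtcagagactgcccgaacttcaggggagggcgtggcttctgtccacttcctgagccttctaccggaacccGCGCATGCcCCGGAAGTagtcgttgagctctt
Mrpl36: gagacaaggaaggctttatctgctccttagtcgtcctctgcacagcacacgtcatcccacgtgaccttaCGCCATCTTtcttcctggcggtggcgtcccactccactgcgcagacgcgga
Mrpl3: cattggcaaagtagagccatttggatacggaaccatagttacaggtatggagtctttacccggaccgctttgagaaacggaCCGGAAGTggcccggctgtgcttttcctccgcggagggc
Mrps26: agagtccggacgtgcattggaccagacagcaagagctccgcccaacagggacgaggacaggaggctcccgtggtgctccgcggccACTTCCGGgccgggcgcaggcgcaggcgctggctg

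Mrpl33 holds NRF1 letters and, right after them, ETS letters that run across the start. Mrpl3 and Mrps26 each hold ETS letters, in opposite orientation, and Mrpl36 holds YY1 letters on the reverse strand. Mrpl33, Mrpl36 and Mrpl3 had knockdown values above both controls and Mrps26 below both, so that genes with like letters stood on both sides.

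The YY1 letters had a common place. Of their 8 occurrences among the members, 6 lay on the strand of the gene just after its start, with the leading base 11 to 36 bases downstream. Letters on that strand after the start were found in 6 of the 75 windows of members (8%), 1.46% of those of genes tested and 0.636% of all windows. YY1 letters anywhere were held by 8 windows of members and 378 of tested genes, and 6 and 197 had them there. The place is thus also common to these letters in other genes. The letters include ATG, the start codon triplet, so that a site there can be part of the start of the protein. The 6 sites are shown with 10 bases before them, the YY1 letters in capitals, to let the shared stretch be seen. They lie at chr6:71823743-71823771 (minus strand), chr4:107066822-107066850 (minus), chr10:95501904-95501932 (minus), chr17:46111005-46111033 (plus), chr11:5707652-5707675 (minus) and chr13:99344790-99344818 (plus).
Mrpl35: ggcaggctgcAAGATGGCGgcttccatct
Mrpl37: tgcacgggcaAAGATGGCGgcgtccaggt
Mrpl42: agattgaagcAAGATGGCGagcgcgcggt
Mrps18a: ggtgcgttccAAGATGGCGgccctcaggg
Mrps24: gcgccggcccAAGATGGCGtggtc
Mrps27: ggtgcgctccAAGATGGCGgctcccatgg

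The log2 fold changes of these 6 genes relative to all genes lay on both sides of 0, from -0.23 for Mrps27 to 0.35 for Mrps24.

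Members also shared an arrangement on the chromosome. Of the 78 genes, 30 (38.5%) start within 1000 bases of a gene that runs the other way, compared with 18.5% of the 13531 genes tested. Members were short, with a median genomic span of 7465 bases against 22948 for all tested genes. They lie on 17 chromosomes. Several of the neighbours also serve mitochondria: Mrps12 starts 147 bases from Sars2, which encodes the mitochondrial seryl-tRNA synthetase, and Mrpl47 starts 308 bases from Ndufb5, a complex I subunit. Mrpl43 overlaps Twnk, the gene of the mitochondrial DNA helicase. The 30 members with such a neighbour had a median log2 fold change of -0.03 relative to all genes, with 12 of them above 0. Mrps26 starts 8 bases from 4930473A02Rik, which stood at 17.4 and 16.3 units in the control pools against 20.7 and 17.9 in the knockdown pools, above both controls where Mrps26 was below them.

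In 1 case both neighbours are members. Mrpl46, a protein of the central protuberance of the large subunit, and Mrps11, a protein of the small subunit, run apart from starts separated by 42 bases on chromosome 7. The stretch that holds both starts, chr7:78783070-78783140 on the plus strand, contains none of the searched letters, and the YY1 letters found on the strand of Mrpl46 begin 58 bases after its start.
Mrpl46 and Mrps11: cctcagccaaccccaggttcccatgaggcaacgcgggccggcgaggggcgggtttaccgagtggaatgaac

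Mrpl46 stood at 6.83 and 7.65 units in control replicates 1 and 2 and at 8.09 and 7.38 units in knockdown replicates 3 and 4. Mrps11 stood at 8.43 and 6.66 units in the control pools against 6.26 and 9.03 in the knockdown pools. The groups overlapped for both genes, and the library with the lowest value was not the same. Log2 fold changes relative to all genes were -0.08 ± 0.28 (SE) for Mrpl46 and -0.16 ± 0.28 for Mrps11.

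No gene of the mitochondrial ribosome passed the test in the knockdown islets. With limma on log2(value + 1), 0 of 78 members were called higher and 0 lower at an adjusted p under 0.05, where 2.49% of all 13531 genes tested were called higher and 0.0443% lower. At an unadjusted p under 0.05 there were 7 members higher (8.97%) and 0 lower, against 9.88% and 0.466% of all genes. On the whole reads recovered from the values, edgeR called 0 members in either direction (all genes: 1.29% higher, 0.148% lower), with 2 higher and 0 lower at an unadjusted p under 0.05 (all genes: 6.54% and 3.75%). DESeq2 called 0 as well (all genes: 0.626% higher, 0.0829% lower), with 0 at an unadjusted p under 0.05 (all genes: 3.62% and 1.79%). After median-ratio scaling limma called 0 members, with 1.12% of all genes higher and 0.155% lower. Left out in turn, control replicates 1 and 2 and knockdown replicates 3 and 4 gave 2, 0, 0 and 0 members called higher, against 9.36%, 2.67%, 0.207% and 2.39% of all genes. None was called lower, against 0.273%, 0.436%, 0.0296% and 0.0222% of all genes. The lowest adjusted p of any member was 0.125 with limma, 0.344 with edgeR and 0.993 with DESeq2.

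The median of the members lay close to that of the whole transcriptome. The median log2 fold change was 0.19 for the members and 0.17 for all genes tested, and 43 of the 78 lay above the median of all genes. Fold changes below are given after subtracting that median, but the p-values of limma refer to the change before subtraction. On this scale the members ran from -0.45 for Mrps26 to 0.58 for Mrpl33, and the middle of the distribution, from the lower to the upper quartile, spanned -0.14 to 0.13. The 95% interval of limma contained 0 for 77 members, the exception being Mrpl33. For 75 members it lay wholly within a 2-fold change in either direction. The other 3, Mrpl33, Mrps5 and Mrpl23, had upper bounds of 1.10, 1.05 and 1.18 (log2).

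**Figure D1:**
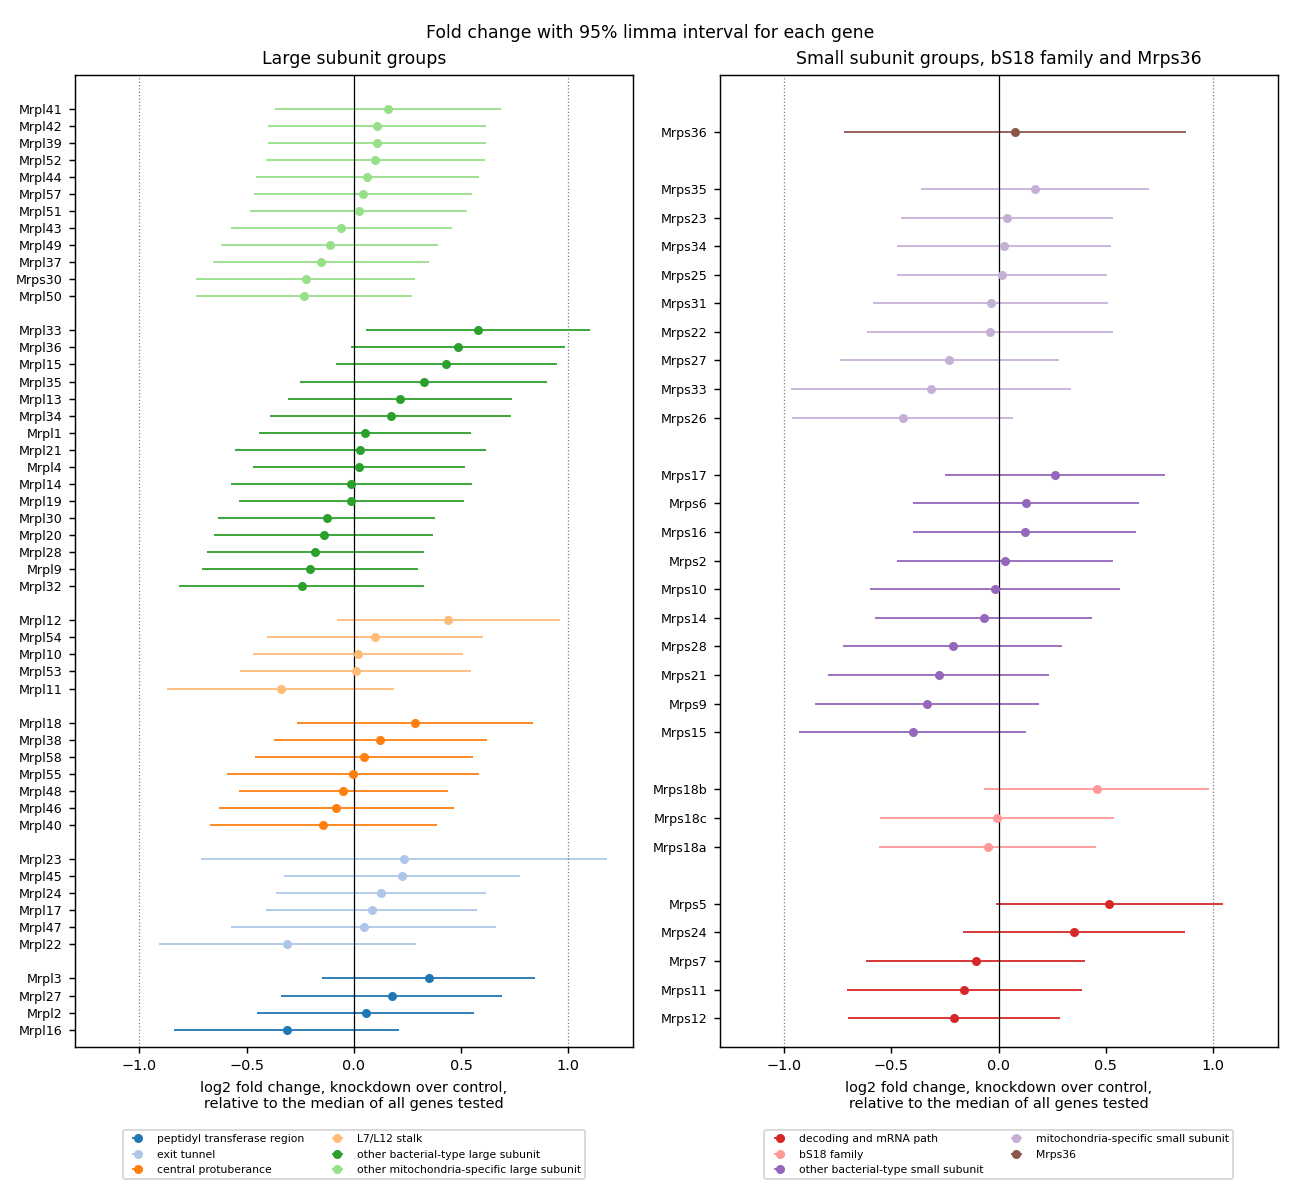
Log2 fold change of each member (x axis, knockdown over control, relative to the median of all genes tested) with its 95% limma interval, coloured by place in the ribosome; dotted lines mark a 2-fold change. All intervals except that of Mrpl33 cross 0, and those of Mrpl33, Mrps5 and Mrpl23 reach past the dotted line.

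The summed level of the members showed how far this depends on scaling. Summed over all 78, the deposited values were 952 and 780 units in control replicates 1 and 2 and 1006 and 976 units in knockdown replicates 3 and 4. Control replicate 2 was the low library, as it was for other genes: it held the lowest value of the 4 for 66.7% of members and for 63.0% of all genes tested. After median-ratio scaling, which sets the typical gene equal across libraries, the sums were 914 and 917 units in the control pools against 931 and 919 in the knockdown pools. A share was also taken of the reads in all rows except the 13 with a mean above 25000 units (Ins1 and Ins2 not counted among them). Of these reads the members made up 0.143% and 0.146% in the controls (Wilson 95% intervals 0.139% to 0.146% and 0.143% to 0.150%). In knockdown replicates 3 and 4 the share was 0.159% and 0.155% (0.156% to 0.163% and 0.151% to 0.158%), intervals that cover counting error only. Both knockdown shares lay above both control shares on this denominator, whereas the 4 sums after scaling all lay between 914 and 931 units.

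**Figure D2:**
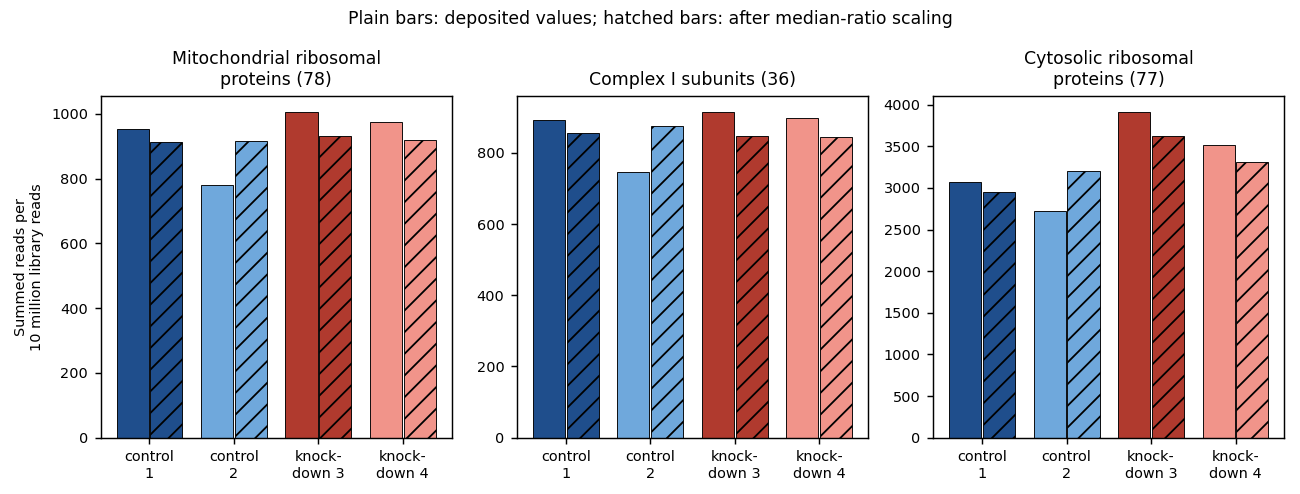
Summed units per library (y axis) for the 78 mitochondrial ribosomal protein genes, 36 complex I subunits and 77 tested cytosolic ribosomal protein genes, as deposited (plain bars) and after median-ratio scaling (hatched bars), 1 bar per library. The scaled sums of the mitochondrial ribosomal genes lie between 914 and 931 units, while those of the cytosolic genes are 2949 and 3206 in the control pools against 3624 and 3313 in the knockdown pools.

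In the proportions of these genes to each other, libraries of opposite groups differed about as much as replicates did. The chi-square of the members' reads per degree of freedom, which is near 1 when only counting separates 2 libraries, was 2.39 for the control pair and 2.40 for the knockdown pair. Across the groups it ran from 1.95 (control replicate 1 against knockdown replicate 4) to 2.63 (control replicate 1 against knockdown replicate 3). This chi-square takes the summed member reads of each library as given, so a change shared by all members does not raise it. On the deposited values both knockdown libraries lay above both controls for 30 members (38.5%, against 34.9% of all genes tested) and below both for 2 (2.56%, against 4.49%). After median-ratio scaling these counts were 13 higher and 12 lower (16.7% and 15.4%, against 20.4% and 20% of all genes). The 13 were all among the 30: Mrpl3, Mrpl12, Mrpl13, Mrpl15, Mrpl27, Mrpl33, Mrpl34, Mrpl36, Mrpl38, Mrps5, Mrps17, Mrps18b and Mrps24. Likewise, the 2 lower members, Mrps26 and Mrpl16, were among the 12.

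**Figure D3:**
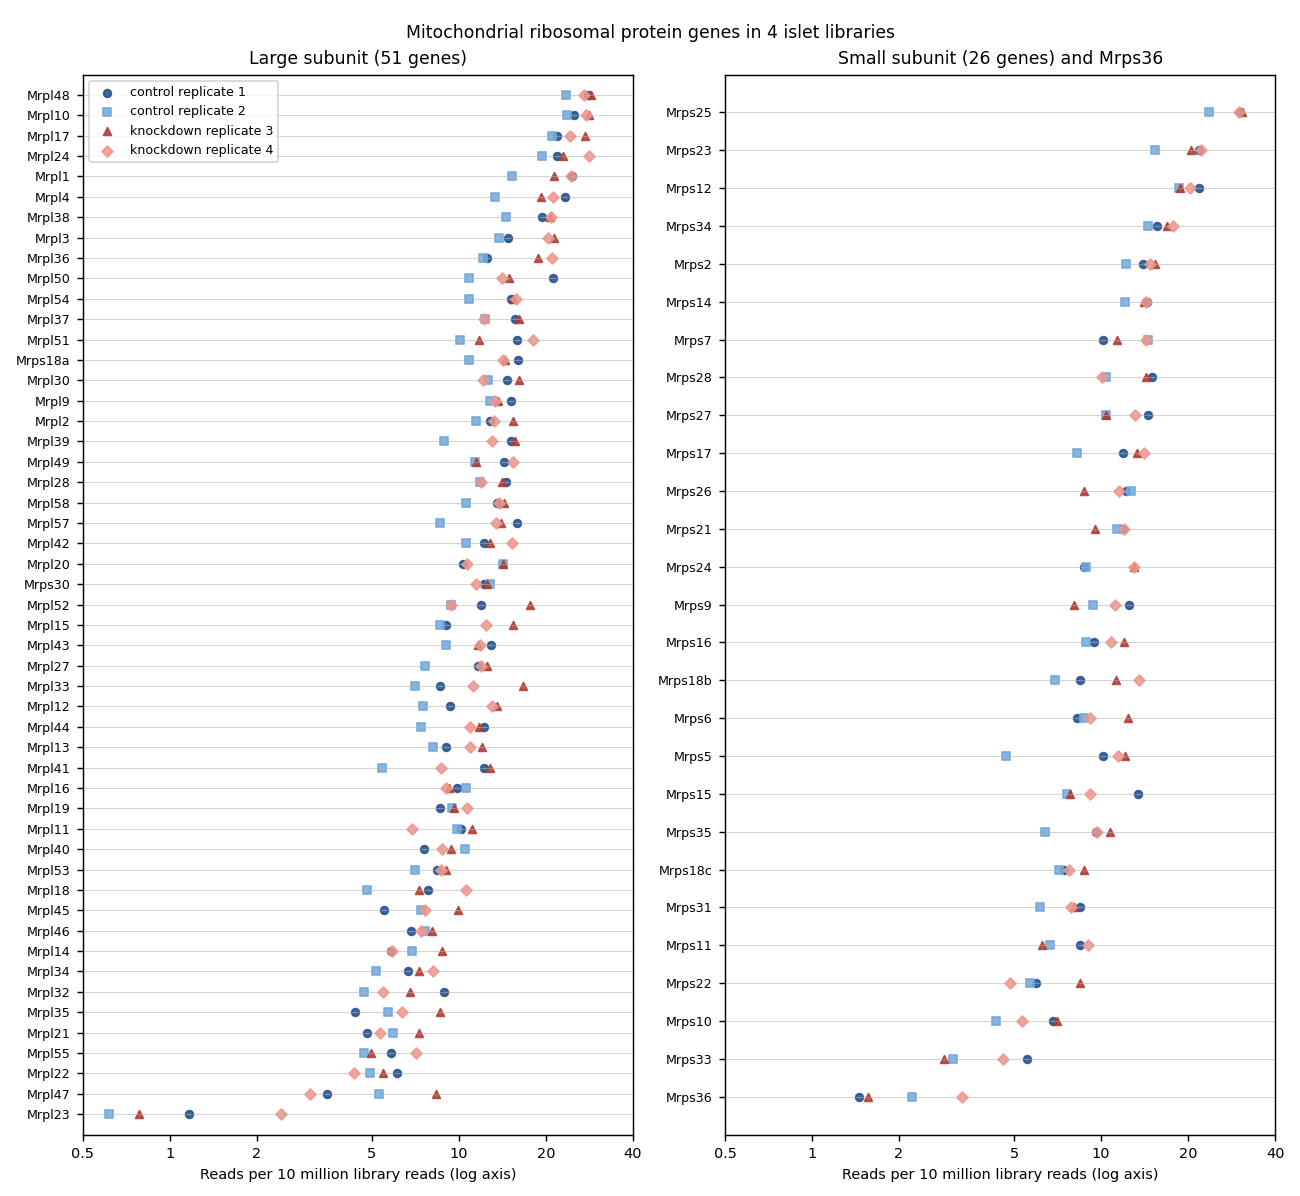
Value of every member in each of the 4 libraries (x axis, reads per 10000000 library reads, log scale), genes ordered by their mean within each subunit. Control replicate 2 is the leftmost point for 52 of the 78 genes, and Mrpl23 and Mrps36 stand apart at the lowest values.

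Catalytic and tunnel proteins of the large subunit come next. Mrpl3 and Mrpl16 belong to the region of the peptidyl transferase centre, where peptide bonds are made, together with Mrpl2 and Mrpl27. Mrpl3 (NM_053159; mm10 chromosome 9, 105053268 to 105077476, plus strand) stood at 14.8 and 13.8 units in control replicates 1 and 2 and at 21.4 and 20.3 in knockdown replicates 3 and 4. Both knockdown libraries were above both controls, by more than the replicates differed, with means of 14.3 ± 0.711 and 20.9 ± 0.735 units (SD, n = 2 each). The log2 fold change was 0.35 ± 0.25 (SE) and did not pass (limma adjusted p = 0.446, edgeR 0.587). Mrpl16 was lower in both knockdown libraries, at 9.88 and 10.6 units in the control pools against 9.26 and 9.03 in the knockdown pools (-0.31 ± 0.27, limma adjusted p = 0.939). Mrpl2 and Mrpl27 had fold changes of 0.05 and 0.18.

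Proteins around the exit tunnel, through which the nascent chain leaves, had a median of 0.10 over 6 genes. The most abundant were Mrpl17, at 21.9 and 21.0 units in the control pools against 27.3 and 24.2 in the knockdown pools, and Mrpl24, at 21.9 and 19.4 against 23.0 and 28.2. In both genes the knockdown libraries lay above the controls, and after median-ratio scaling they overlapped. Mrpl45, which helps to anchor the ribosome to the inner membrane, stood at 5.52 and 7.40 units in the control pools against 9.91 and 7.63 in the knockdown pools (0.23 ± 0.28, limma adjusted p = 0.739). It was -0.09 without control replicate 1 and 0.54 without control replicate 2. Mrpl22 stood at 6.10 and 4.93 against 5.48 and 4.32 units (-0.31 ± 0.31, limma adjusted p = 0.953). Mrpl23 had the lowest level of all members, 8, 5, 6 and 19 reads in replicates 1 to 4, which is too few to place its fold change within a 2-fold range. Mrpl47 also varied widely between the knockdown libraries, at 8.35 and 3.05 units, with 3.49 and 5.30 in the controls.

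The central protuberance of the large subunit had a median of -0.01 over 7 genes. Mrpl48 is its most abundant gene and overlaps Rab6a, whose row holds 2.91 times as much. Mrpl48 stood at 27.9 and 23.6 units in the control pools against 28.7 and 27.1 in the knockdown pools, so that control replicate 1 lay between the knockdown libraries. Mrpl38 stood at 19.3 and 14.6 against 20.6 and 20.9 units, Mrpl40 at 7.56 and 10.5 against 9.39 and 8.78, and Mrpl18 at 7.85 and 4.81 against 7.30 and 10.6. None of these passed, with fold changes from -0.14 for Mrpl40 to 0.28 for Mrpl18. The value for Mrpl18 was 0.03 without knockdown replicate 4 and 0.53 without knockdown replicate 3. Mrpl58, a peptidyl-tRNA hydrolase that became a ribosomal protein, had a fold change of 0.05.

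The L7/L12 stalk recruits the translation factors. Mrpl12, its flexible protein, stood at 9.30 and 7.52 units in the control pools against 13.6 and 13.0 in the knockdown pools, on 64, 61, 104 and 102 reads. The knockdown values were above both controls on either scale, with a log2 fold change of 0.44 ± 0.26 (limma adjusted p = 0.313, edgeR 0.549). Mrpl10, to which Mrpl12 binds, had close values in the groups once the median of all genes was taken off. It stood at 24.99 and 23.7 units in the control pools against 28.2 and 27.5 in the knockdown pools, a fold change of 0.02 ± 0.25. Mrpl11 stood at 10.2 and 9.87 against 11.1 and 6.87 units (-0.34 ± 0.27), with the groups overlapping, and Mrpl54 at 15.1 and 10.9 against 15.4 and 15.8 (0.10 ± 0.26). The value of Mrpl11 rests on knockdown replicate 4, since it was -0.05 without that library and -0.64 without knockdown replicate 3.

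Among the other large-subunit proteins of bacterial type were the members with the largest statistics. Mrpl33 (NM_025796; chromosome 5, 31613951 to 31622644, plus strand) stood at 8.57 and 7.03 units in control replicates 1 and 2 and at 16.7 and 11.2 in knockdown replicates 3 and 4, on 59, 57, 128 and 88 reads. Knockdown replicate 3 was the highest library, and both knockdown libraries lay above both controls. The means were 7.80 ± 1.09 and 13.9 ± 3.89 units (SD, n = 2 each). The log2 fold change of 0.58 ± 0.27 (95% interval 0.06 to 1.10) did not pass after adjustment (limma adjusted p = 0.125, edgeR adjusted p = 0.344). Without control replicate 1 Mrpl33 was called higher (limma adjusted p = 0.0338), in a fit that keeps 1 control library, assumes that it varies like the others and calls 9.36% of all genes higher. After median-ratio scaling the same fit, added after seeing the data, called 0 members and 0 genes in all, with 1 member at an unadjusted p under 0.05. Without knockdown replicate 3 its fold change was 0.32 (adjusted p = 1.0).

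Mrpl36 (NM_053163; chromosome 13, 73331009 to 73332178, plus strand), a small zinc-binding protein, had the next lowest p. It stood at 12.5 and 12.1 units in the control pools against 18.8 and 21.0 in the knockdown pools, on 86, 98, 144 and 165 reads. The difference between the means, 12.3 ± 0.288 and 19.9 ± 1.56 units (SD, n = 2 each), exceeded the spread between replicates. It still did not pass over all genes (0.48 ± 0.26, limma adjusted p = 0.205, edgeR adjusted p = 0.367). Mrpl15, named after its values were seen, stood at 9.01 and 8.63 against 15.4 and 12.5 units (0.43 ± 0.26, limma adjusted p = 0.323). The most abundant genes of this set were Mrpl1, the protein of the L1 stalk, at 24.7 and 15.3 against 21.3 and 24.4 units, and Mrpl4, at 23.2 and 13.3 against 19.3 and 21.2. In both, control replicate 1 and control replicate 2 lay far apart and the knockdown libraries lay in between. The median over the 16 genes was 0.03, and its lowest value was -0.24, for Mrpl32.

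The 12 other large-subunit proteins that occur only in mitochondria ran from -0.23 to 0.16 with a median of 0.03. Mrpl50 stood at 21.2 and 10.9 units in the control pools against 14.9 and 14.1 in the knockdown pools, which places the knockdown between 2 discordant controls. Its fold change of -0.23 was 0.08 without control replicate 1 and -0.55 without control replicate 2. Mrpl37 stood at 15.7 and 12.3 against 16.2 and 12.2 units. Mrps30, a large-subunit protein in spite of its name, stood at 12.2 and 12.8 against 12.5 and 11.4 units. Summed over the set, the deposited values were 172 and 117 units in the control pools against 163 and 154 in the knockdown pools, so that control replicate 2 was again the low library and control replicate 1 the high one. After median-ratio scaling the order was the same, at 165 and 137 against 151 and 145 units. Mrpl52 differed most between the knockdown libraries of this set, at 17.6 and 9.41 units. Split by origin over both subunits, the 29 mitochondria-specific members had a median of 0.02 and the 48 of bacterial type 0.03. All 7 members with an unadjusted p under 0.05 were of bacterial type, a split seen after the fact and not tested.

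In the small subunit the median was -0.03 over 26 genes, compared with 0.04 over the 51 of the large subunit, a difference that was not tested. Mrps5, at the entry of the messenger RNA channel, stood at 10.2 and 4.69 units in the control pools against 12.1 and 11.4 in the knockdown pools. Control replicate 1 was close to the knockdown libraries, and control replicate 2, with 38 reads, was far below. The log2 fold change was 0.52 ± 0.27 (limma adjusted p = 0.216, edgeR 0.584). Leaving out control replicate 1 gave 0.87, which was called in the same fit with 1 control library (limma adjusted p = 0.00598), and leaving out control replicate 2 gave 0.16 (0.890), so that the size of this value rests on control replicate 2.

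Mrps24, also on the messenger RNA path, had replicates that lay close together. It stood at 8.72 and 8.88 units in the control pools against 13.0 and 13.0 in the knockdown pools, a log2 fold change of 0.35 ± 0.26 (limma adjusted p = 0.490). Mrps12, a protein of the decoding centre, stood at 21.8 and 18.6 units in the control pools against 18.8 and 20.3 in the knockdown pools (-0.21 ± 0.25). Mrps7 stood at 10.2 and 14.6 against 11.3 and 14.2 units. For Mrps12 and Mrps7 the groups overlapped, and the 5 genes of this path had a median of -0.11.

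The bS18 family holds 3 paralogues that occupy different places in the ribosome. Mrps18b stood at 8.43 and 6.91 units in the control pools against 11.2 and 13.5 in the knockdown pools (0.46 ± 0.27, limma adjusted p = 0.300, edgeR 0.544). Mrps18a, a large-subunit protein, stood at 16.0 and 10.9 against 14.5 and 14.2 units (-0.05 ± 0.26), and Mrps18c had a fold change of -0.01. The knockdown values were above both controls on either scale for Mrps18b, and on neither scale for Mrps18a.

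Other small-subunit proteins of bacterial type included members that stood lower. Mrps15 stood at 13.4 and 7.65 units in the control pools against 7.83 and 9.16 in the knockdown pools (-0.40 ± 0.27, limma adjusted p = 0.890), where only control replicate 1 stood apart. Mrps9 stood at 12.5 and 9.37 against 8.09 and 11.2 units (-0.33 ± 0.27). The most abundant were Mrps2, at 13.9 and 12.2 against 15.4 and 14.8 units, and Mrps14, at 14.4 and 12.1 against 14.1 and 14.2. The 10 genes had a median of -0.04, and Mrps17 had the highest fold change, 0.26.

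Small-subunit proteins found only in mitochondria had a median of -0.04 over 9 genes. Mrps26 (NM_207207; chromosome 2, 130563757 to 130565394, plus strand) had the lowest fold change of all members. It stood at 12.2 and 12.7 units in control replicates 1 and 2 and at 8.74 and 11.6 in knockdown replicates 3 and 4, on 84, 103, 67 and 91 reads. Both knockdown libraries were below both controls, knockdown replicate 4 only slightly, and the value did not pass (-0.45 ± 0.26, limma adjusted p = 0.842, edgeR 0.559). Mrps33 stood at 5.52 and 3.08 against 2.87 and 4.58 units, with the groups overlapping. Mrps25, the most abundant of all members, stood at 30.2 and 23.6 units in the control pools against 30.8 and 30.0 in the knockdown pools (0.02 ± 0.25). Its row overlaps Nr2c2, which holds 2.05 times as much. Mrps23 stood at 21.8 and 15.4 against 20.5 and 22.1 units.

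Mrps36, in neither subunit here, had 10, 18, 12 and 26 reads in replicates 1 to 4. Its fold change of 0.08 ± 0.41 carried an interval from -0.72 to 0.87.

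Levels spanned 1.24 to 28.6 units over the members, with a median of 11.2, and 41.7% of all genes tested had a level below that median. A comparison between genes depends on the counted length, which the sources used here do not give. Per kilobase of genomic span Mrps34 (14.0 units) and Mrpl36 (13.8) ranked highest, and Mrps28 (0.102) lowest, a gene that spans 121711 bases. This ranking holds only if whole spans were counted. For these 3 genes it follows the span, since Mrps28 had a mean of 12.4 units, against 16.2 for Mrps34 over 1153 bases and 16.1 for Mrpl36 over 1169. Of the members, 12 overlap another gene of the table. For Mrpl21, Mrpl53, Mrps23 and Mrps6 that gene runs on the same strand, so strand cannot separate the reads. For the others the reads cannot be told apart if strand was not used in counting. None of the 12 had an unadjusted p under 0.05 by limma, where 9.88% of all genes were higher and 0.466% lower. Whether an overlap changed the values was not tested. The 66 without an overlap had a median of 0.03.

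The rest of the mitochondrial translation machinery was looked up in lists of genes. None of 5 further ribosome subunits with other names, 26 assembly and RNA modification factors, 15 translation factors, 22 genes of aminoacyl-tRNA synthesis or 6 tested genes of mitochondrial transcription was called by limma or edgeR. Their medians were 0.00, 0.01, 0.01, -0.05 and 0.00. Unadjusted p-values under 0.05 came to 0, 0, 2, 1 and 0, all higher, where 9.88% of all genes were higher and 0.466% lower at that threshold. After adjustment 2.49% of all genes were called higher by limma and 1.29% by edgeR. Chchd1, a small-subunit protein, stood at 10.5 and 7.40 units in the control pools against 13.6 and 10.9 in the knockdown pools (0.26 ± 0.26). Aurkaip1, another subunit, stood at 22.1 and 15.0 against 19.3 and 20.6 units (-0.04 ± 0.25). Of the transcription genes Mterf2, which binds mitochondrial DNA, stood at 5.23 and 3.21 against 3.65 and 5.09 units, and Mterf1a at 1.16 and 0.987 against 1.57 and 0.509.

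Tufm, the elongation factor that brings aminoacyl-tRNA to the ribosome, stood at 3.49 and 1.73 units in the control pools against 6.26 and 4.32 in the knockdown pools (0.66 ± 0.34, limma adjusted p = 0.248). Taco1, a translational activator of a cytochrome c oxidase subunit, stood at 7.56 and 5.92 against 5.22 and 4.45 units (-0.57 ± 0.30, adjusted p = 0.758). Groups did not overlap for either gene. Tars2, the mitochondrial threonyl-tRNA synthetase, stood at 7.85 and 9.13 against 14.6 and 14.0 units (0.53 ± 0.26, adjusted p = 0.175), above both controls in both knockdown libraries. Among assembly factors Mrm2, a ribosomal RNA methyltransferase, stood at 2.91 and 0.987 against 3.39 and 3.31 units, and Mettl17 at 3.49 and 4.44 against 7.30 and 4.96. The row of Lars2, the leucyl-tRNA synthetase, held 286929 and 279304 units in the control pools against 224411 and 256980 in the knockdown pools, far above any other synthetase. It also lay far above Ins2, at 58452 and 46108 against 48195 and 51995 units. Whether its reads come from the messenger RNA of Lars2 was not tested, so the row is not read as the level of that gene. It is among the 13 rows with a mean above 25000 units (Ins1 and Ins2 not counted among them).

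Complex I subunits, some of whose partners are made on the mitochondrial ribosome, had 0 of 36 members called by either test (all genes: 2.49% higher by limma, 1.29% by edgeR) and a median of -0.02. Ndufb2 stood highest, at 12.9 and 8.76 units in the control pools against 16.7 and 18.4 in the knockdown pools (0.50 ± 0.26, limma adjusted p = 0.184), and Ndufb5 lowest, at 21.8 and 19.2 against 19.95 and 17.3. Proteins of the cytosolic ribosome, which make the mitochondrial ribosomal proteins themselves, had a median of 0.18 over 77 tested genes, with 63 above the median of all genes. Of these 1 of 77 was called by limma, where 2.49% of all genes were called higher. It was Rpl13, at 6.39 and 3.33 against 8.87 and 10.9 units (0.77 ± 0.29, adjusted p = 0.0431), and 0 by edgeR (Rpl13 adjusted p = 0.257). Rpl12 had the largest fold change, at 1.16 and 1.73 against 4.96 and 3.69 units (0.96 ± 0.38, limma adjusted p = 0.0889). Cytosolic ribosomal protein genes have many processed copies that share reads with them, which makes their single values uncertain. The difference between the medians of the 2 kinds of ribosome was not tested.

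**Figure D4:**
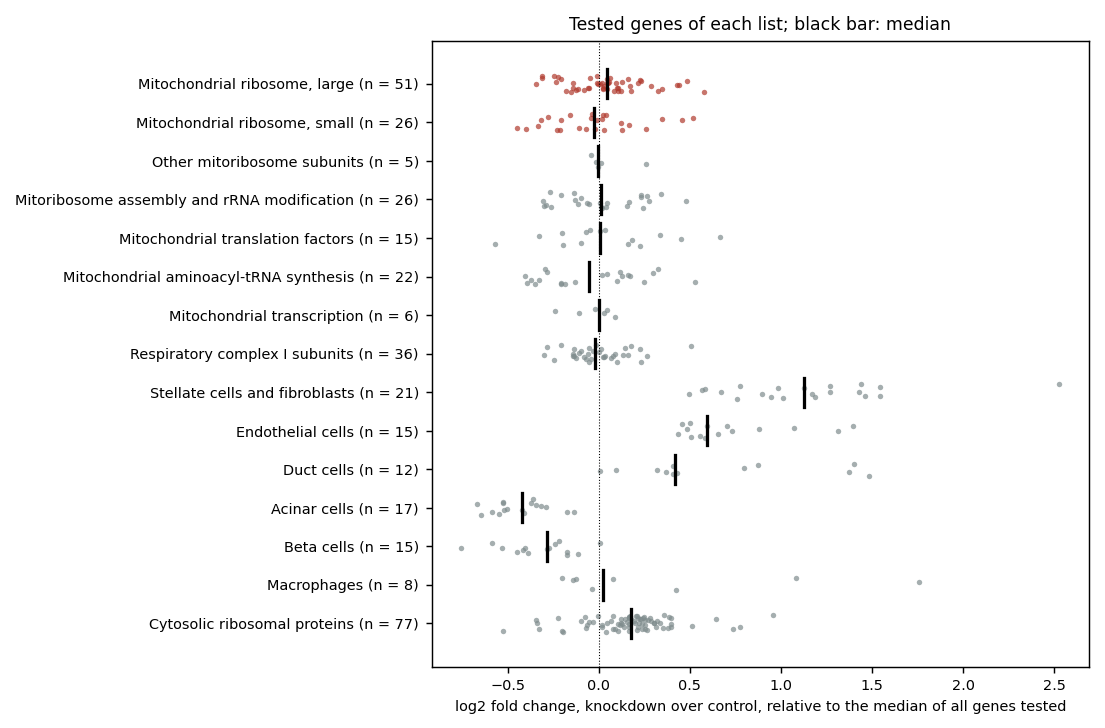
Log2 fold change relative to the median of all genes tested (x axis) for each tested gene (points) of the mitochondrial ribosome (red) and of the other lists (grey), with the median of each list as a black bar. The medians of the mitochondrial lists, large and small subunit included, lie between -0.05 and 0.04, the stellate, endothelial and duct markers lie to the right at medians of 1.13, 0.59 and 0.42, and the acinar and beta cell genes lie to the left.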

How the data were processed

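Per the labels' protocols, total islet RNA was depleted of ribosomal RNA and made into directional, randomly primed libraries. The Rn45s row still held 41.6% to 42.6% of the reads of a library. The submitters' processing notes name STAR 2.5.1b, HOMER 4.9, edgeR and mm10, without roles. The authors deposited 1 table of a signal per gene and library, in reads per 10000000 library reads although it is named as FPKM. Every value was a whole multiple of 1 read within 0.01 reads, so whole reads were recovered (100% of values), each worth 0.123 to 0.145 units. The counted region is not given in the sources used here, and the length column equals the genomic span for nearly all genes.

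Values were transformed to log2(value + 1) and fitted with limma 3.58.1 (R 4.3.3), using its mean-variance trend, over 13531 genes spanning at least 200 bases whose mean reached 1 unit. Tests were two-sided, with Benjamini-Hochberg adjustment over all these genes. A fold change on this scale understates that of low genes. The prior degrees of freedom were infinite, so each gene took its variance from the trend. edgeR 4.0.16 and DESeq2 1.42.0 were run on the recovered reads. The members, gene lists and tests were chosen with earlier results of these data known. The plan had assumed FPKM. In each part of the ribosome the 2 genes with the highest mean and the 2 with the largest statistic were named, together with any called gene, in each further list the 2 largest fold changes, and Taz. Other named members were added after their values were seen. The tests were checked on simulated data. Replicate numbers are not shared between groups.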

Additional observations from a re-analysis of the deposited data

How the results depend on the processing

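No member was called lower under any alternative run, and none was called higher except without control replicate 1, where limma called 2 (Mrps5 and Mrpl33). Leaving out single libraries thus gave 0 to 2 members higher and 0 lower, in fits where the library left alone in its group is assumed to vary like the others. Over all genes the limma count of 337 higher and 6 lower was 174 and 20 with edgeR, 83 and 11 with DESeq2, 151 and 21 after median-ratio scaling, 86 and 7 after quantile normalization, 87 and 1 with no filter on low values and 528 and 16 with no trend. Without control replicate 1 it was 1266 and 37, without control replicate 2 361 and 59, without knockdown replicate 3 28 and 4, and without knockdown replicate 4 324 and 3. Median-ratio scaling with 1 library left out was chosen after seeing the data and called 0 members in each case, with 0 to 341 genes higher and 0 to 68 lower over all genes.

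The median of the members relative to all genes was 0.023. It was -0.019 after quantile normalization and 0.15 with no filter. With no filter 23643 genes entered and the subtracted median of all genes was 0.043 instead of 0.166. The members' fold changes before subtraction stayed as they were. Leaving out single libraries gave -0.010 to 0.033, and doing so after median-ratio scaling gave 0.00017 to 0.034, with 0.0090 without control replicate 1. The cause of the other shifts was not tested.

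Some named members changed sign in some settings, most of them near 0 but also Mrpl45 (0.23) and Mrpl50 (-0.23). With no filter, where only the subtracted median changed, Mrpl48 was at 0.074, Mrps14 at 0.053, Mrps18a at 0.072 and Mrps7 at 0.015. After quantile normalization Mrps36 was at -0.047. Over the 4 fits that each left out 1 library the ranges were -0.14 to 0.24 for Mrpl1, -0.078 to 0.12 for Mrpl10, -0.022 to 0.19 for Mrpl17, -0.040 to 0.14 for Mrpl2, -0.034 to 0.28 for Mrpl24, -0.33 to 0.020 for Mrpl37, -0.22 to 0.27 for Mrpl4 and -0.49 to 0.21 for Mrpl40. They were -0.093 to 0.54 for Mrpl45, -0.55 to 0.084 for Mrpl50, -0.18 to 0.073 for Mrps18a, -0.019 to 0.073 for Mrps2, -0.063 to 0.14 for Mrps23, -0.023 to 0.053 for Mrps25, -0.31 to 0.46 for Mrps36 and -0.48 to 0.27 for Mrps7.

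No paired analysis was possible because the groups share no replicate number. With 2 pools a group and fewer than 50 reads for 19 members in at least 1 library, differences within the intervals given could not be seen.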
